A study of Danio rerio with 12 samples.

Results

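The genes of fibroblast growth factor (FGF) signalling and of its ERK feedback were followed in whole zebrafish embryos exposed to camptothecin (CPT), a topoisomerase I poison that leaves breaks in DNA. Members were the rows of the count table whose symbols name an FGF ligand (fgf), an FGF receptor (fgfr1 to fgfr4 and fgfrl), a Sprouty or Spred inhibitor (spry, spred), a dual-specificity phosphatase (dusp), a Pea3-type transcription factor (etv1, etv4 and etv5) or the Sef receptor il17rd. This gave 69 of 15265 rows. The 4 groups of 3 libraries were miR-34a-/- embryos in 1 µM CPT, miR-34a-/- embryos in DMSO, wild-type embryos in 1 µM CPT and wild-type embryos in DMSO. Embryos were treated for 4 h starting at 24 h after fertilisation, reached 28 h at collection, and were pooled, 30 to 50 to a library, for poly-A RNA sequencing. The mutant count columns are named as a deletion of mir34a, and the labels do not give the strain or whether the mothers of the mutants carried the deletion. The labels give 0.005% DMSO for the controls, whereas dilution of the stated 2 mM CPT stock in DMSO to 1 µM comes to 0.05%, so effects of CPT and of the extra DMSO cannot be told apart. No label says that the numbered libraries of a group came from separate clutches, so every p-value rests on the variation among pools, some of which may be technical.

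FGF ligands bind receptor tyrosine kinases with heparan sulphate as a cofactor, and the receptors signal through the Ras, Raf, MEK and ERK cascade. Active ERK induces genes that restrain it, among them Sprouty and Spred inhibitors, the Sef receptor and the phosphatase gene dusp6, and the Pea3-type factors that carry the transcriptional response. In zebrafish embryos this loop patterns the midbrain-hindbrain boundary, the ear, the pharyngeal pouches, the fin buds, the heart and the tail. The symbol pattern also takes in genes with other roles: the fgf11 to fgf14 genes encode intracellular proteins that bind voltage-gated sodium channels, many dusp genes act on other substrates, and fgfr1op (cep43) and fgfr1op2 are named after fusion partners of the human receptor and are no receptors.

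Under CPT most FGF receptor genes fell and the feedback genes that act after them went both ways. In mutants 4 of 5 receptor genes and both tested fgfrl genes fell, while spry1, spry4, dusp1, dusp2, dusp5, dusp6, dusp7 and etv5b rose. The feedback inhibitor genes spred2b and il17rd fell in mutants, as did the Pea3-type gene etv1. In wild-type embryos the same 6 receptor and fgfrl genes fell, as did spred2b and il17rd, and spry1, spry2, spry4, spred1, dusp2, dusp5, dusp6, dusp7 and etv5b rose. Of the 69 rows, 50 passed the filter on low counts and were tested in a fit across 11866 genes (edgeR quasi-likelihood, called at an adjusted p under 0.05). Of these 50, 15 rose and 15 fell in mutants, and 15 rose and 18 fell in wild-type embryos. CPT also moved most other genes: 60.2% of all tested genes were called in mutants (28.5% higher, 31.7% lower) and 60.8% in wild-type embryos (29.1% higher, 31.8% lower). The number of members called therefore sits near the background of the table, and what follows is about which members moved, in which direction and by how much. Libraries of the 2 treatments did not overlap for 34 of 50 members in mutants and 33 of 50 in wild-type embryos, against 66.1% and 64.3% of all tested genes. The median log2 fold change over the 50 members was 0.01 in mutants and -0.10 in wild-type embryos, against -0.0064 and -0.0025 over all tested genes.

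**Figure D1:**
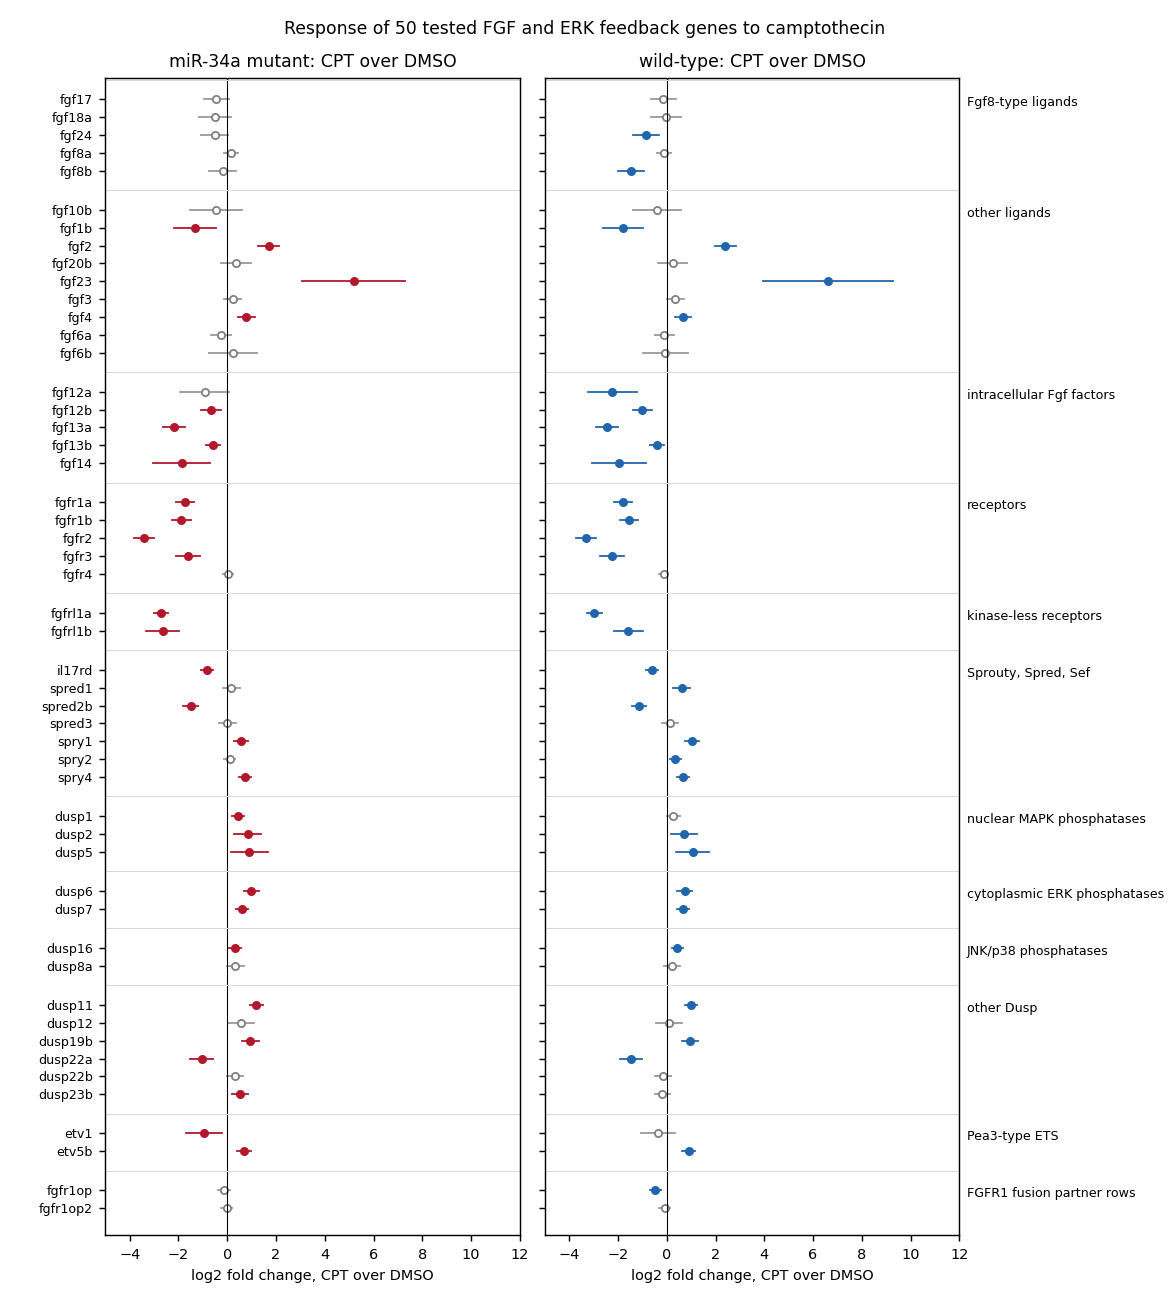
Log2 fold change of CPT over DMSO (x axis) for the 50 tested members, grouped by role, in miR-34a mutants (left) and wild-type embryos (right). Points are edgeR estimates from 3 libraries against 3, bars are 95% intervals, and filled points were called at an adjusted p under 0.05. The receptor points lie left of 0 except that of fgfr4 in mutants, and the fgfr4 intervals include 0 in both panels. Most of the Sprouty, MAPK phosphatase and etv5b points lie right of 0. The fitted values of fgf23 rest on 0 or 1 count in the DMSO groups and are no bound.

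The remaining 19 rows did not reach the filter. Of these, dusp23a, dusp3b, fgf11a, fgf16, fgf1a, fgf20a, fgf22 and fgf5 were listed at 0 in all 12 libraries. The other 11 held few counts over the 12 libraries together: 1 for etv5a, 2 for dusp4 and fgf10a, 8 for etv4, 15 for dusp13a, 22 for fgf18b, 33 for dusp19a, 40 for fgf21, 52 for dusp14, 71 for fgf7 and 77 for fgf19. Whether a gene listed at 0 was silent cannot be told from these counts. The adaptor gene grb2a was listed at 0 in every library too. How reads were assigned to these rows was not tested. Among the 50 tested rows, fgf23 reached the CPM level of the filter only in CPT libraries and fgf12a only in DMSO libraries. The filter asked for that level in at least 3 libraries. The genes fgf14 and fgf1b reached it in 1 library of each CPT group and in 3 of each DMSO group. The gene fgf10b reached it in 1 library of each CPT group, in 2 mutant DMSO and in 3 wild-type DMSO libraries. All of these genes were tested only because of the treatment in which they were higher. Their places in the counts of members called therefore support nothing, and no edgeR p is given for them. Library totals were 13.5 to 21.7 M counts in mutant CPT, 15.03 to 22.4 M in mutant DMSO, 20.3 to 27.9 M in wild-type CPT and 20.2 to 22.8 M in wild-type DMSO. The scaling matters for small changes in wild-type embryos: when libraries were scaled by their totals and not by TMM factors (trimmed mean of M-values), the median tested gene moved to -0.23 on the log2 scale, and 29.7% instead of 47.8% of the called genes were higher. Under that scaling 11 members rose and 21 fell in wild-type embryos, and 13 rose and 15 fell in mutants. All levels below are CPM, that is counts relative to the TMM-scaled library total, which compare libraries and not genes because gene length was not used.

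Of the tested members, the receptor gene fgfr2 had the lowest log2 fold change under CPT in both genotypes. It had 27.0, 16.5 and 18.4 CPM in mutant CPT libraries 1 to 3, against 255, 220.4 and 183 CPM in mutant DMSO libraries. Wild-type embryos had 21.6, 25.7 and 16.5 CPM under CPT, against 191, 215 and 219 CPM under DMSO. Every CPT library was far below every DMSO library in both genotypes. The log2 fold change was -3.40 ± 0.19 (SE) in mutants (edgeR adjusted p = 6.01e-10) and -3.29 ± 0.19 in wild-type embryos (adjusted p = 6.96e-10). Of all tested genes, 0.868% had as low a value in mutants and 1.21% in wild-type embryos. The other gene copies fell less. The CPM of fgfr1a was 9.47, 10.04 and 8.74 in the mutant CPT libraries and 36.0, 31.3 and 27.3 in the mutant DMSO libraries, and 11.03, 11.1 and 6.10 in the wild-type CPT libraries and 28.9, 34.3 and 33.8 in the wild-type DMSO libraries. The CPM of fgfr1b was 9.42, 4.89 and 7.42 in the mutant CPT libraries and 30.2, 26.5 and 24.2 in the mutant DMSO libraries, and 10.4, 9.66 and 7.37 in the wild-type CPT libraries and 23.5, 26.7 and 28.7 in the wild-type DMSO libraries. The CPM of fgfr3 was 4.08, 3.09 and 3.96 in the mutant CPT libraries and 16.1, 9.28 and 8.62 in the mutant DMSO libraries, and 2.24, 3.50 and 2.38 in the wild-type CPT libraries and 11.3, 14.96 and 12.7 in the wild-type DMSO libraries. No CPT library of these 3 genes overlapped a DMSO library of its genotype. The log2 fold changes were -1.74 for fgfr1a, -1.88 for fgfr1b and -1.59 for fgfr3 in mutants, and -1.79, -1.53 and -2.25 in wild-type embryos, with SEs of 0.18 to 0.24 and edgeR adjusted p of at most 9.16e-06.

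The fourth type of receptor gene, fgfr4, did not pass the test in either genotype. It had 256, 233 and 252 CPM in mutant CPT libraries, against 254, 237 and 237 CPM in mutant DMSO libraries. In wild-type embryos it had 231, 256 and 243 CPM under CPT, against 255, 269.7 and 275 CPM under DMSO. The groups overlapped in both genotypes. The log2 fold change was 0.03 (95% interval -0.16 to 0.22) in mutants and -0.13 (-0.32 to 0.06) in wild-type embryos, and edgeR made no call (adjusted p = 0.825 and 0.224), although with library totals the wild-type value was -0.36 and was called (adjusted p = 0.00397). The ratio of 2 receptor genes within each library does not depend on the scaling. The log2 ratio to fgfr4 changed under CPT by -3.45 in mutants and -3.18 in wild-type embryos for fgfr2, by -1.76 and -1.70 for fgfr1a, by -1.96 and -1.40 for fgfr1b, and by -1.58 and -2.14 for fgfr3. These ratios are a description with no test, since they were formed after fgfr4 was seen to differ from the other 4 genes. The same kind of ratio was tested for each of the 7 pairs of a and b copies with both genes tested. This comparison was also set up after values were seen, but every such pair was taken. The test was a two-sided exact permutation of treatment within genotype (400 rearrangements, smallest possible p 0.005). Benjamini-Hochberg adjustment ran over these pairs and the 4 above. Those 4 all reached the smallest possible p, which can make the adjusted p of the other pairs too small. The 2 copies of fgfr1 did not pass (log2 ratio changed by 0.20 in mutants and -0.29 in wild-type embryos, adjusted exact permutation p = 0.815), except without mutant CPT library 2 (mean -0.20, adjusted p = 0.0344). The pairs fgf6a and fgf6b (-0.47 in mutants and -0.17 in wild-type embryos, adjusted p = 0.435) and fgfrl1a and fgfrl1b (0.01 and -1.35, adjusted p = 0.131) did not pass in the same permutation test either. The ratio of fgf12a to fgf12b changed by -0.08 in mutants and -1.11 in wild-type embryos. It is given with no p, because fgf12a reached the level of the filter only in DMSO libraries.

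**Figure D2:**
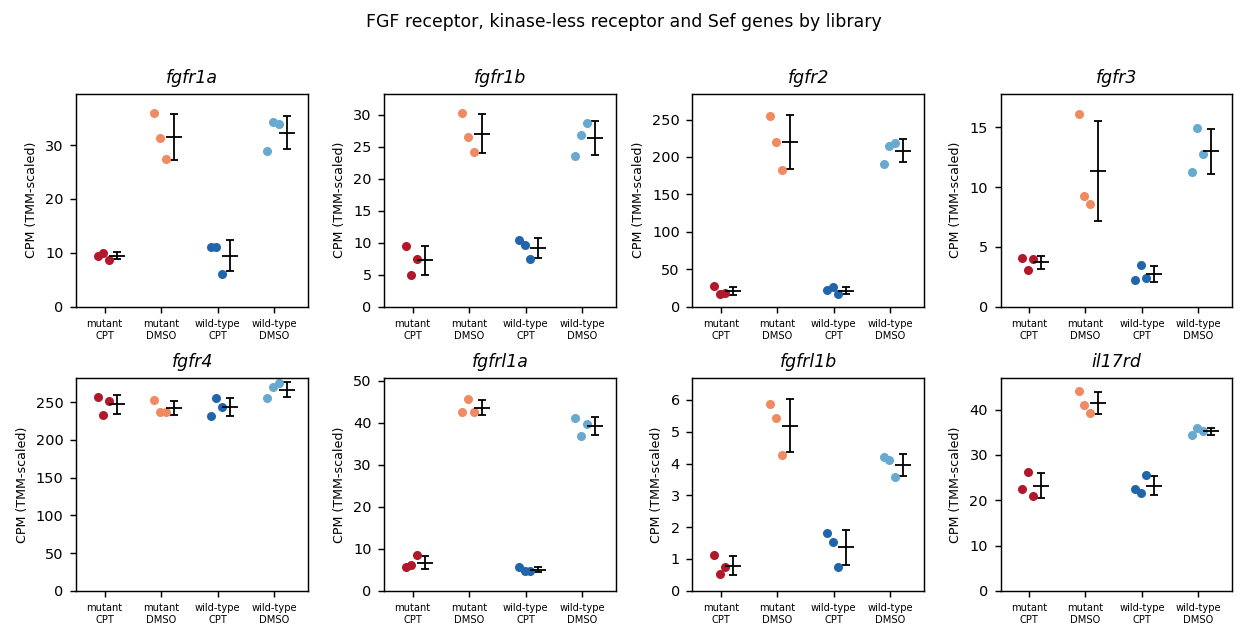
CPM (TMM-scaled, y axis from 0) of the 5 receptor genes, fgfrl1a, fgfrl1b and il17rd in each library. Points are libraries 1 to 3 from left to right, and the line and bar beside them are the mean and SD. The CPT points of fgfr4 overlap the DMSO points, and those of the other 7 genes lie below them in both genotypes.

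The make-up of the receptor counts therefore differed between treatments. Of all counts on the 5 receptor genes, fgfr2 held 8.82%, 6.16% and 6.34% in mutant CPT libraries, against 43.2%, 42.0% and 38.1% in mutant DMSO libraries. In wild-type embryos it held 7.83%, 8.39% and 5.99% under CPT, against 37.5%, 38.3% and 38.4% under DMSO. The share of fgfr4 was 83.7% to 87.1% in mutant CPT and 42.9% to 49.4% in mutant DMSO libraries. Its share was 83.6% to 88.3% in wild-type CPT and 48.1% to 50.1% in wild-type DMSO libraries. These are shares of reads and not of molecules, and in whole-embryo RNA fewer cells of a type and less RNA per cell cannot be told apart.

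**Figure D3:**
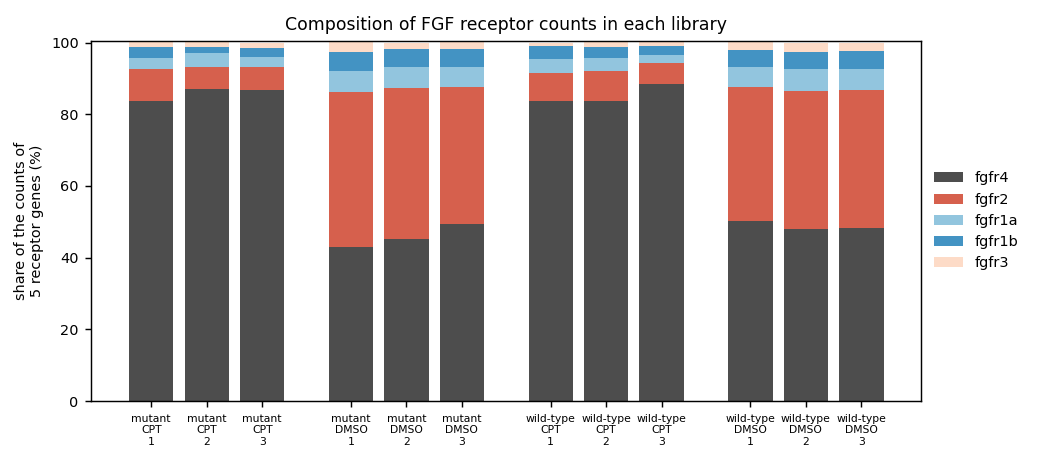
Share (%) of the counts of the 5 receptor genes held by each gene in the 12 libraries. The fgfr4 share is 83.6% or more in every CPT library and 50.1% or less in every DMSO library, and the fgfr2 share is 8.82% or less in every CPT library and 37.5% or more in every DMSO library.

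The fgfrl genes encode receptor-like proteins that bind ligand and lack the kinase domain. The CPM of fgfrl1a was 5.61, 6.05 and 8.52 in the mutant CPT libraries and 42.5, 45.7 and 42.5 in the mutant DMSO libraries, and 5.72, 4.67 and 4.65 in the wild-type CPT libraries and 41.0, 36.7 and 39.7 in the wild-type DMSO libraries. The log2 fold change of fgfrl1a was -2.71 ± 0.15 (SE) in mutants and -2.97 ± 0.15 in wild-type embryos, with the smallest p of any member in both genotypes (edgeR adjusted p = 5.52e-12 and 1.40e-12). The CPM of fgfrl1b was 1.12, 0.515 and 0.734 in the mutant CPT libraries and 5.88, 5.43 and 4.26 in the mutant DMSO libraries, and 1.83, 1.53 and 0.744 in the wild-type CPT libraries and 4.22, 4.10 and 3.57 in the wild-type DMSO libraries. The fgfrl1b values were -2.65 ± 0.32 in mutants and -1.58 ± 0.29 in wild-type embryos (adjusted p = 4.95e-07 and 8.77e-05). For both genes all CPT libraries were below all DMSO libraries. The genotypes were not told apart in the fgfrl1b response (interaction log2 value -1.07, adjusted p = 0.249), a test that passed without wild-type CPT library 3 (-1.41, adjusted p = 0.0466).

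Ligand genes went in both directions, and the ligand gene with the smallest p was fgf2, which encodes basic FGF. It had 12.4, 9.20 and 10.9 CPM in mutant CPT libraries, against 4.54, 2.495 and 3.14 CPM in mutant DMSO libraries. In wild-type embryos it had 14.9, 15.1 and 15.4 CPM under CPT, against 3.14, 3.35 and 2.12 CPM under DMSO. All CPT libraries lay above all DMSO libraries. The log2 fold change was 1.70 ± 0.21 (SE) in mutants (edgeR adjusted p = 7.60e-07) and 2.40 ± 0.21 in wild-type embryos (adjusted p = 4.30e-09), and 2.37% and 0.86% of tested genes had as high a value. The genotypes were not told apart in this response (interaction -0.70, 95% interval -1.31 to -0.08, adjusted p = 0.264). The gene next to fgf2 in the RefSeq annotation, nudt6, moved the same way: its log2 fold change was 2.09 ± 0.19 in mutants and 1.90 ± 0.19 in wild-type embryos (adjusted p = 1.28e-08 and 3.06e-08). In mammals nudt6 is transcribed antisense to fgf2. In the RefSeq annotation, which is from another build, fgf2 was not among the 21 tested members that overlap another gene. The annotation and strand setting behind the counts are unknown, so some reads of the 2 genes may still be mixed. The part of this in the result was not tested.

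The hormone-like ligand gene fgf23, known for phosphate control, was found almost only in CPT libraries. It had 11, 26 and 5 counts in mutant CPT libraries, against 0, 1 and 0 counts in mutant DMSO libraries. In wild-type embryos it had 6, 13 and 21 counts under CPT, against 0 counts in every DMSO library. The ratio of summed counts over summed totals was 46.4 in mutants, and its exact 95% interval, which covers counting error only, ran between 7.89 and 1880. With 0 counts in the wild-type DMSO group set to a floor of 3 for the whole group, its level in wild-type CPT embryos was at least 11.7-fold higher. Because fgf23 passed the filter only through its CPT libraries, the interval and this bound are descriptions and no test. Neither covers the spread among libraries. The row overlaps rad51ap1 in the RefSeq annotation, and rad51ap1 was at 0.02 ± 0.13 in mutants and 0.23 ± 0.13 in wild-type embryos on the log2 scale, not called (adjusted p = 0.882 and 0.124). The Fgf4 ligand gene rose as well. The CPM of fgf4 was 8.93, 11.8 and 8.96 in the mutant CPT libraries and 5.58, 5.47 and 6.24 in the mutant DMSO libraries, and 8.91, 9.35 and 9.52 in the wild-type CPT libraries and 4.88, 6.09 and 6.50 in the wild-type DMSO libraries. Its log2 fold change was 0.78 ± 0.17 in mutants and 0.67 ± 0.17 in wild-type embryos (adjusted p = 0.000535 and 0.00164), and the treatments did not overlap.

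The Fgf8-type ligand genes were called higher in neither genotype: 0 of 5 tested were called in mutants, and 2 fell in wild-type embryos. Among all tested genes 60.2% were called in mutants, and 31.8% fell in wild-type embryos. The gene fgf8a, the main ligand of the midbrain-hindbrain boundary, had 16.0, 16.0 and 18.9 CPM in mutant CPT libraries, against 15.1, 16.1 and 14.3 CPM in mutant DMSO libraries. In wild-type embryos it had 12.04, 14.4 and 15.9 CPM under CPT, against 13.5, 15.8 and 16.2 CPM under DMSO. The treatments overlapped, and the log2 fold changes were 0.16 (95% interval -0.13 to 0.45) in mutants and -0.10 (-0.39 to 0.18) in wild-type embryos, not called (edgeR adjusted p = 0.341 and 0.536). Its paralogue fgf8b fell in wild-type embryos. The CPM of fgf8b was 2.02, 1.61 and 2.35 in the mutant CPT libraries and 2.02, 2.32 and 2.43 in the mutant DMSO libraries, and 1.00, 0.944 and 1.34 in the wild-type CPT libraries and 2.81, 3.84 and 2.55 in the wild-type DMSO libraries. The fgf8b log2 fold change was -1.46 ± 0.27 in wild-type embryos (adjusted p = 7.76e-05) and -0.19 ± 0.26 in mutants (adjusted p = 0.555). The mutant treatments overlapped and the wild-type ones did not. The difference between genotypes had a log2 value of 1.27 (95% interval 0.49 to 2.06) and the smallest interaction p of any member, and was not called (adjusted p = 0.117); without wild-type CPT library 3 it was 1.45 and was called (adjusted p = 0.0456). The log2 ratio of fgf8a to fgf8b counts was higher under CPT by 0.35 in mutants and by 1.35 in wild-type embryos (exact permutation p = 0.005). Its adjusted p was 0.00786 over 11 pairs, all set after values were seen and 4 of them the ratios to fgfr4.

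The gene fgf24, which acts in the pectoral fin bud, fell in wild-type embryos. The CPM of fgf24 was 2.20, 2.51 and 2.64 in the mutant CPT libraries and 2.88, 3.02 and 4.56 in the mutant DMSO libraries, and 2.65, 1.48 and 1.97 in the wild-type CPT libraries and 2.81, 4.24 and 3.78 in the wild-type DMSO libraries. Its CPT libraries lay below its DMSO libraries in both genotypes, although the mutant value was not called. The log2 fold change was -0.84 in wild-type embryos (adjusted p = 0.00782) and -0.52 in mutants (adjusted p = 0.0939), and the wild-type call was lost without wild-type CPT library 2 (-0.62, adjusted p = 0.0647). The CPM of fgf3 was 10.8, 10.7 and 8.15 in the mutant CPT libraries and 8.15, 9.41 and 7.86 in the mutant DMSO libraries, and 8.97, 9.71 and 10.5 in the wild-type CPT libraries and 6.47, 9.27 and 7.34 in the wild-type DMSO libraries. The fgf3 groups overlapped and it was not called (0.22 in mutants, adjusted p = 0.266, and 0.34 in wild-type embryos, adjusted p = 0.084), but it passed in wild-type embryos without mutant CPT library 3 (0.38, adjusted p = 0.0478), wild-type CPT library 1 (0.43, 0.0459) or wild-type DMSO library 2 (0.495, 0.0279). The acidic ligand gene fgf1b had log2 fold changes of -1.31 in mutants and -1.80 in wild-type embryos, and -0.92 in mutants without mutant DMSO library 2. These are given with no p, because fgf1b passed the filter only through its DMSO libraries. The remaining 6 tested ligand genes, fgf6a, fgf6b, fgf10b, fgf17, fgf18a and fgf20b, were called in neither genotype, with log2 fold changes from -0.51 to 0.36.

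**Figure D4:**
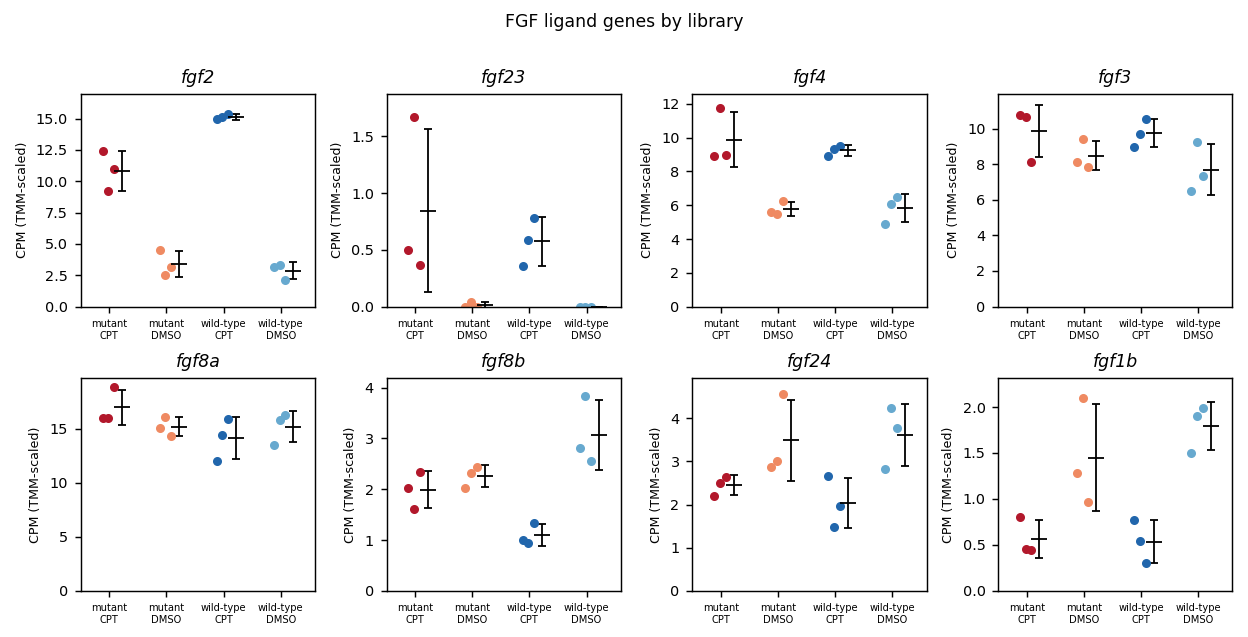
CPM (TMM-scaled, y axis from 0) of 8 ligand genes in each library. Points are libraries 1 to 3 from left to right, and the line and bar beside them are the mean and SD. CPT points lie above DMSO points for fgf2, fgf23 and fgf4 and below them for fgf1b and fgf24 in both genotypes. Those of fgf8b are apart in wild-type embryos and overlap in mutants.

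The intracellular Fgf factors are found mainly in neurons. The genes fgf12b, fgf13a and fgf13b fell in both genotypes, and the other tested genes, fgf12a and fgf14, are given as values. Among all tested genes 31.7% fell in mutants and 31.8% in wild-type embryos. The CPM of fgf13a was 8.75, 4.38 and 6.53 in the mutant CPT libraries and 33.4, 30.5 and 27.1 in the mutant DMSO libraries, and 6.67, 6.16 and 3.83 in the wild-type CPT libraries and 29.1, 27.6 and 33.6 in the wild-type DMSO libraries. Its log2 fold change was -2.19 ± 0.21 (SE) in mutants and -2.46 ± 0.21 in wild-type embryos (edgeR adjusted p = 6.74e-08 and 1.36e-08), and no treatments overlapped. The copy fgf13b changed by -0.58 in mutants and -0.40 in wild-type embryos (adjusted p = 0.00148 and 0.017). The wild-type call of fgf13b was lost without wild-type CPT library 2 (-0.33, adjusted p = 0.0867), wild-type CPT library 3 (-0.34, 0.0728) or wild-type DMSO library 1 (-0.33, 0.0749). The fgf13a to fgf13b log2 ratio changed by -1.68 in mutants and -2.07 in wild-type embryos (exact permutation p = 0.005). Its adjusted p was 0.00786 over the same 11 pairs, with the ratios to fgfr4 among them. The gene fgf12b fell by 0.66 in mutants and 1.0 in wild-type embryos on the log2 scale (edgeR adjusted p = 0.00571 and 0.000116). For fgf14 the log2 fold change was -1.87 in mutants and -1.95 in wild-type embryos, and -1.38 in mutants without mutant DMSO library 1. It is given with no p, because fgf14 passed the filter only through its DMSO libraries. The log2 fold change of fgf12a was -0.93 in mutants and -2.23 in wild-type embryos.

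Of the feedback inhibitors, spry1 and spry4 rose and spred2b and il17rd fell in both genotypes. Sprouty proteins block the step from receptors to Raf. The CPM of spry4 was 95.5, 90.2 and 98.7 in the mutant CPT libraries and 63.0, 55.1 and 54.9 in the mutant DMSO libraries, and 70.6, 85.5 and 98.7 in the wild-type CPT libraries and 48.5, 56.5 and 56.2 in the wild-type DMSO libraries. All CPT libraries of spry4 were above all DMSO libraries, with log2 fold changes of 0.72 ± 0.12 (SE) in mutants and 0.66 ± 0.12 in wild-type embryos (edgeR adjusted p = 2.00e-05 and 4.81e-05). The CPM of spry1 was 23.7, 19.1 and 23.1 in the mutant CPT libraries and 15.5, 14.5 and 15.01 in the mutant DMSO libraries, and 25.0, 31.1 and 31.4 in the wild-type CPT libraries and 16.6, 13.3 and 13.2 in the wild-type DMSO libraries. The spry1 treatments did not overlap either, and it rose by 0.55 in mutants and 1.02 in wild-type embryos (adjusted p = 0.00169 and 1.64e-06), with an interaction of -0.47 that was not called (adjusted p = 0.244). The CPM of spry2 was 57.2, 64.3 and 62.0 in the mutant CPT libraries and 58.4, 59.8 and 52.2 in the mutant DMSO libraries, and 56.9, 64.3 and 73.2 in the wild-type CPT libraries and 53.5, 46.8 and 51.5 in the wild-type DMSO libraries. The spry2 rise in wild-type embryos was 0.36 (adjusted p = 0.00665), but 0.14 with library totals (adjusted p = 0.362), and the mutant value was 0.10 (95% interval -0.12 to 0.33, adjusted p = 0.415).

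Spred proteins restrain Raf and act with neurofibromin on Ras. The CPM of spred2b was 13.8, 12.7 and 13.8 in the mutant CPT libraries and 41.8, 40.9 and 31.7 in the mutant DMSO libraries, and 14.9, 16.6 and 11.4 in the wild-type CPT libraries and 31.1, 34.8 and 28.3 in the wild-type DMSO libraries. All CPT libraries of spred2b were below all DMSO libraries, with log2 fold changes of -1.503 ± 0.15 (SE) in mutants and -1.14 ± 0.14 in wild-type embryos (edgeR adjusted p = 2.89e-08 and 1.01e-06). The gene spred1 rose by 0.62 in wild-type embryos (adjusted p = 0.00297, or 0.385 and 0.0573 with library totals) and was at 0.16 in mutants (adjusted p = 0.416), and spred3 was called in neither genotype (0.00 in mutants and 0.14 in wild-type embryos). Sef, encoded by il17rd, is a membrane inhibitor that FGF signalling induces in zebrafish. The CPM of il17rd was 22.4, 26.3 and 21.0 in the mutant CPT libraries and 44.2, 41.1 and 39.3 in the mutant DMSO libraries, and 22.5, 21.6 and 25.7 in the wild-type CPT libraries and 34.4, 35.9 and 35.3 in the wild-type DMSO libraries. It fell by 0.84 in mutants and 0.60 in wild-type embryos on the log2 scale (adjusted p = 2.80e-06 and 0.000123), with no overlap of treatments. Within this family of 7 tested genes, 2 rose and 2 fell in mutants and 4 rose and 2 fell in wild-type embryos. The share called was 57.1% and 85.7%, against 60.2% and 60.8% of all tested genes.

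**Figure D5:**
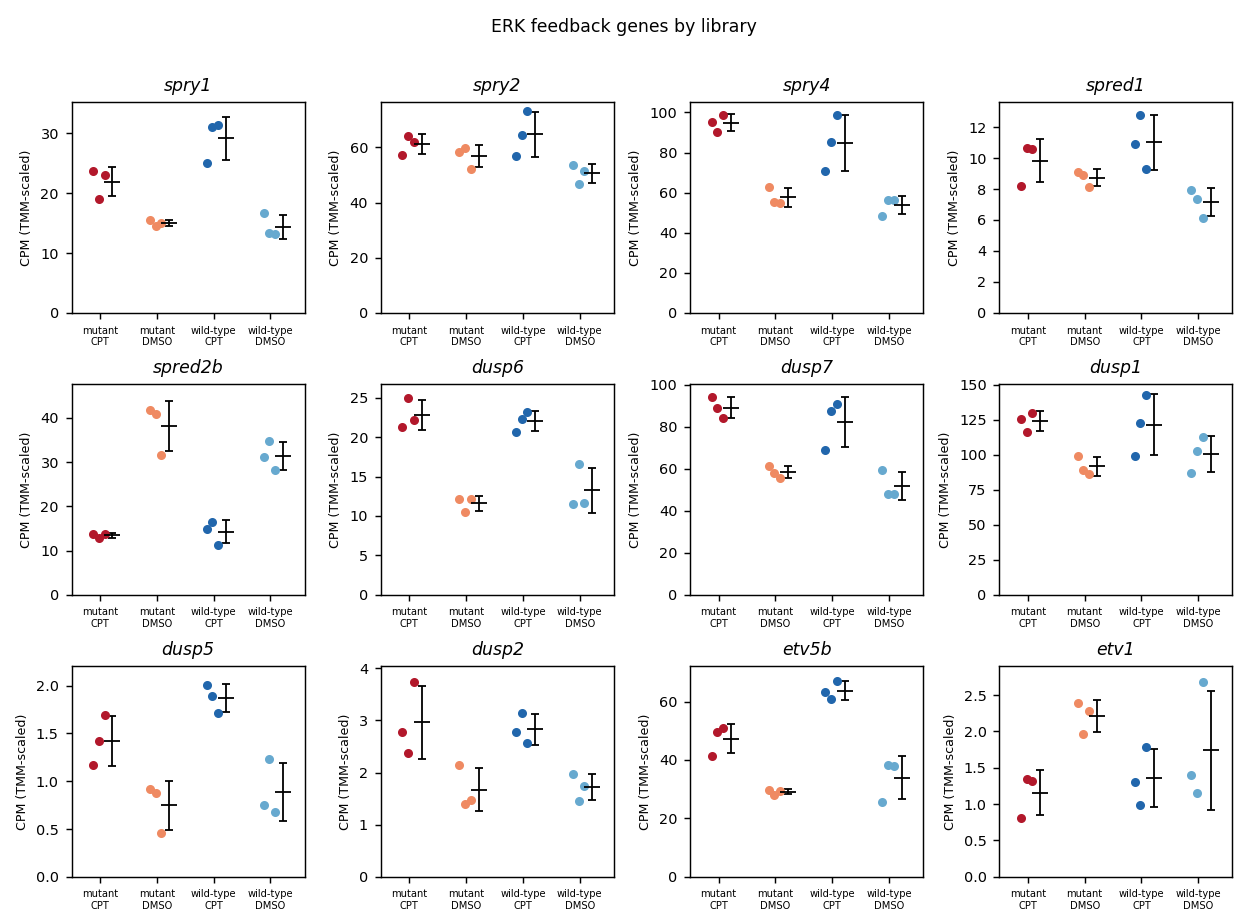
CPM (TMM-scaled, y axis from 0) of 12 feedback genes in each library. Points are libraries 1 to 3 from left to right, and the line and bar beside them are the mean and SD. CPT points lie above all DMSO points of their genotype, in mutants and in wild-type embryos, for spry1, spry4, dusp6, dusp7, dusp5, dusp2 and etv5b, and below them for spred2b.

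Of the 5 tested genes for nuclear MAPK and cytoplasmic ERK phosphatases, 5 rose in mutants and 4 in wild-type embryos, where 28.5% and 29.1% of all tested genes rose. The dusp6 product removes phosphate from ERK in the cytoplasm and the gene is a standard readout of FGF activity in zebrafish. The CPM of dusp6 was 21.3, 25.0 and 22.2 in the mutant CPT libraries and 12.1, 10.6 and 12.1 in the mutant DMSO libraries, and 20.6, 22.3 and 23.2 in the wild-type CPT libraries and 11.6, 16.6 and 11.6 in the wild-type DMSO libraries. Every CPT library was above every DMSO library, and the log2 fold change was 0.98 ± 0.15 (SE) in mutants and 0.74 ± 0.14 in wild-type embryos (edgeR adjusted p = 9.42e-06 and 0.000172). Its relative dusp7 rose by 0.61 in mutants and 0.67 in wild-type embryos (adjusted p = 0.000115 and 4.10e-05). The nuclear phosphatase genes dusp1, dusp2 and dusp5 belong to the rapidly induced class. The CPM of dusp1 was 126, 116 and 129.9 in the mutant CPT libraries and 99.0, 89.3 and 86.4 in the mutant DMSO libraries, and 99.2, 122 and 143 in the wild-type CPT libraries and 87.0, 102 and 112 in the wild-type DMSO libraries. The dusp1 rise was 0.44 in mutants (adjusted p = 0.00423), whereas in wild-type embryos the treatments overlapped and the value of 0.27 was not called (adjusted p = 0.0563). The wild-type value passed without mutant CPT library 3 (0.315, adjusted p = 0.0371), wild-type CPT library 1 (0.44, 0.00278) or wild-type DMSO library 3 (0.36, 0.0288).

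The CPM of dusp2 was 2.78, 2.38 and 3.74 in the mutant CPT libraries and 2.15, 1.40 and 1.47 in the mutant DMSO libraries, and 2.77, 3.15 and 2.57 in the wild-type CPT libraries and 1.97, 1.46 and 1.74 in the wild-type DMSO libraries. The CPM of dusp5 was 1.17, 1.42 and 1.69 in the mutant CPT libraries and 0.919, 0.875 and 0.456 in the mutant DMSO libraries, and 2.01, 1.89 and 1.71 in the wild-type CPT libraries and 0.750, 1.24 and 0.679 in the wild-type DMSO libraries. Both genes were low, and their treatments did not overlap in either genotype. The gene dusp2 rose by 0.83 in mutants and 0.71 in wild-type embryos (edgeR adjusted p = 0.0102 and 0.0197), and dusp5 by 0.90 and 1.06 (adjusted p = 0.0367 and 0.00856). These calls were less firm than that of dusp6: the mutant call of dusp2 was lost without mutant DMSO library 2 (0.71, adjusted p = 0.0512), and its wild-type call without wild-type CPT library 2 (0.67, 0.0574), without wild-type DMSO library 2 (0.605, 0.0824) and with library totals (0.48, 0.123). The mutant call of dusp5 was lost without mutant CPT library 2 (0.90, adjusted p = 0.0678), mutant CPT library 3 (0.81, 0.0929) or mutant DMSO library 3 (0.64, 0.153), and with library totals (0.85, 0.0526).

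Of the genes for JNK and p38 phosphatases, dusp16 rose by 0.32 in mutants and 0.43 in wild-type embryos (edgeR adjusted p = 0.0181 and 0.0021). With library totals these were 0.26 and 0.19 and neither was called (adjusted p = 0.0628 and 0.159), and the mutant call was lost without mutant CPT library 1 (0.29, 0.0604), mutant DMSO library 2 (0.28, 0.0747) or mutant DMSO library 3 (0.24, 0.0972). The gene dusp8a was not called (0.33 in mutants, adjusted p = 0.0972, and 0.22 in wild-type embryos, adjusted p = 0.261). It passed without wild-type CPT library 3 in both genotypes (0.36, adjusted p = 0.0334, and 0.41, adjusted p = 0.0297) and in mutants without mutant DMSO library 1 (0.48, 0.0265). Among the other dusp genes, dusp11, which encodes an RNA phosphatase of the same fold, had 72.1, 72.1 and 63.1 CPM in mutant CPT and 34.8, 28.8 and 27.2 CPM in mutant DMSO libraries. In wild-type embryos it had 53.8, 45.2 and 52.1 CPM under CPT and 28.4, 21.0 and 26.3 CPM under DMSO. It rose by 1.195 ± 0.13 (SE) in mutants and 1.0 ± 0.13 in wild-type embryos (adjusted p = 8.95e-08 and 1.02e-06), without overlap.

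The gene dusp19b rose by 0.95 in mutants and by 0.95 in wild-type embryos (edgeR adjusted p = 3.45e-05 and 4.31e-05). The copies of dusp22 parted: dusp22a fell by 1.04 in mutants and 1.46 in wild-type embryos on the log2 scale (adjusted p = 0.000581 and 8.85e-06), while dusp22b was at 0.31 in mutants and -0.15 in wild-type embryos and was not called. The dusp22a to dusp22b log2 ratio changed by -1.34 in mutants and -1.27 in wild-type embryos (exact permutation p = 0.005). Its adjusted p was 0.00786 over 11 pairs, with the ratios to fgfr4 among them. The mutant value of dusp22b passed without mutant CPT library 3 (0.42, adjusted p = 0.0477). The gene dusp23b rose by 0.52 in mutants (adjusted p = 0.006), a call lost without mutant CPT library 2 (0.37, adjusted p = 0.0568), and was at -0.18 in wild-type embryos (adjusted p = 0.3, or -0.41 and called at 0.0354 with library totals). Its interaction was 0.70 (adjusted p = 0.124), and 0.77 without wild-type CPT library 3 (adjusted p = 0.0498). The gene dusp12 was called in neither genotype (0.58 in mutants, adjusted p = 0.0522, and 0.09 in wild-type embryos), but its mutant value, from 0.58 to 0.83, passed when any of 6 single libraries was left out, among them mutant DMSO library 3 (0.83, adjusted p = 0.0117).

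The Pea3-type factors carry FGF signals to target genes. The CPM of etv5b was 41.5, 49.5 and 50.9 in the mutant CPT libraries and 29.7, 28.1 and 29.5 in the mutant DMSO libraries, and 63.2, 60.8 and 67.1 in the wild-type CPT libraries and 25.5, 38.4 and 38.1 in the wild-type DMSO libraries. Its log2 fold change was 0.70 ± 0.13 (SE) in mutants and 0.91 ± 0.13 in wild-type embryos (edgeR adjusted p = 0.00014 and 5.60e-06), and all CPT libraries exceeded all DMSO libraries. The relative etv1 fell by 0.96 in mutants on the log2 scale (adjusted p = 0.0242) and was at -0.35 in wild-type embryos (adjusted p = 0.378). The mutant call of etv1 was lost without mutant CPT library 1 (-0.72, adjusted p = 0.125), mutant DMSO library 1 (-0.905, 0.0577) or mutant DMSO library 3 (-0.93, 0.0514). The other 2 family members were almost without counts: etv4 had 0, 0 and 0 counts in mutant CPT libraries, 0, 1 and 0 in mutant DMSO, 0, 0 and 2 in wild-type CPT and 3, 2 and 0 in wild-type DMSO libraries, and etv5a had 1 count, in wild-type CPT library 3. The phosphatase gene dusp4 had 1 count each in wild-type CPT library 3 and wild-type DMSO library 1, and fgf10a had 1 count each in mutant DMSO library 2 and wild-type DMSO library 3. No change of these 4 genes could be detected at such counts. The fusion partner row fgfr1op fell by 0.46 in wild-type embryos on the log2 scale (adjusted p = 0.0013) and was at -0.13 in mutants (adjusted p = 0.33), and fgfr1op2 was called in neither (-0.02 in mutants and -0.08 in wild-type embryos, where library totals gave -0.32 and a call, adjusted p = 0.0207).

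The design also asks whether miR-34a, a microRNA that p53 induces in vertebrates, alters this response. Of the 50 tested members, 13 rose and 14 fell in both genotypes, 0 moved in opposite directions, 14 were called in neither and 9 in 1 genotype. Of all 11866 tested genes, 2606 rose and 3131 fell in both genotypes, and 30 moved in opposite directions. Another 3268 were called in neither genotype and 2831 in 1. The members therefore sat near the whole table. Member calls in mutants alone were dusp1, dusp23b and etv1, and those in wild-type embryos alone were fgf8b, fgf12a, fgf24, fgfr1op, spred1 and spry2. Of these, fgf12a was tested only because of its level in DMSO, so its place here supports nothing. The same holds for fgf14 and fgf1b among the members that fell in both genotypes. It holds too for fgf23, tested only because of its level in CPT, among those that rose. The difference itself was tested as the interaction, which edgeR called for 0 of 50 members, as did DESeq2 and limma-voom. An unadjusted edgeR p under 0.05 was found for 6 of 50 members, against 1797 of 11866 tested genes. Among all tested genes 0.16% were called (0.0253% higher, 0.135% lower). Without wild-type CPT library 3 the interaction was called for 3 members, the fgf8b, dusp23b and fgfrl1b values given above. The 0.16% is from the full fit, and the share of all tested genes called without this library is not given here. These 3 calls are therefore not read as a result about the members. Among pairs of libraries within a group, those with this library differed most. Their chi-square per degree of freedom was 67.4 against wild-type CPT library 1 and 39.1 against library 2. The part of this in the calls was not tested.

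Between genotypes under CPT, edgeR called 1 of 50 members higher and 0 lower, against 3.29% of all tested genes (1.13% higher, 2.16% lower). This was dusp11, at 69.1 ± 5.22 CPM (SD, n = 3) in mutant CPT and 50.4 ± 4.59 CPM in wild-type CPT libraries, a log2 difference of 0.46 ± 0.12 (SE, edgeR adjusted p = 0.0453). All mutant CPT libraries exceeded all wild-type CPT libraries, and 22.8% of all tested genes did not overlap in this comparison, in either direction. In DMSO the dusp11 difference between genotypes was 0.26 (edgeR adjusted p = 0.438). Its interaction was 0.20 and was not called (adjusted p = 0.639). The call was lost without mutant CPT library 1 (0.425, adjusted p = 0.142), 2 (0.425, 0.151) or 3 (0.51, 0.0887), wild-type CPT library 1 (0.505, 0.0665) or 2 (0.38, 0.221), mutant DMSO library 2 (0.46, 0.0617) or wild-type DMSO library 3 (0.46, 0.058). DESeq2 called dusp11, dusp19b (0.51, adjusted p = 0.0356) and fgfr1op (0.37, 0.0384) higher and etv5b lower (-0.44, 0.0376). Without wild-type CPT library 3, edgeR called 4 members higher, namely dusp11, dusp12 (0.94, adjusted p = 0.0194), dusp19b (0.58, 0.0396) and fgfr1op (0.43, 0.0297). Without wild-type DMSO library 1 it called etv5b lower (-0.43, adjusted p = 0.03). The shares of all tested genes called in these 2 fits are not given here, so the counts are not read as a result about the members. With library totals 7 members were called higher in mutants: dusp11 (0.65), dusp12 (0.83), dusp19b (0.70), dusp23b (0.57), fgf8b (1.02), fgfr1op (0.55) and fgfrl1a (0.60). That scaling moved the median of all tested genes to 0.20 and the share of higher genes among all calls to 91.0%, against 34.4% with TMM factors, so part of each value is the shift of the whole table. In DMSO, edgeR called 0 of 50 members between genotypes, as did DESeq2 and limma-voom, with 0.598% of all tested genes called (0.194% higher, 0.405% lower). An unadjusted edgeR p under 0.05 was found there for 3 of 50 members, against 1397 of 11866 tested genes. The member with the smallest p there was dusp19b, at 0.51 (95% interval 0.17 to 0.86, adjusted p = 0.192).

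The rest of the pathway was read from lists that hold no members. Whether genes of these lists or of the marker lists passed the filter through a single treatment only was not checked. Of 22 tested genes for co-receptors, heparan sulphate synthesis and matrix regulators (33 listed), 4 rose and 16 fell in mutants and 2 rose and 16 fell in wild-type embryos, with median log2 fold changes of -1.48 and -1.41. The share called was 90.9% and 81.8%, against 60.2% and 60.8% of all tested genes. The heparan sulphate enzymes ndst1b (-3.17 in mutants and -3.64 in wild-type embryos), hs6st1a (-3.26 and -3.37) and ext1a (-1.76 and -1.996) fell, as did sulf1, which trims sulphate groups from the chains (-1.98 and -2.06). The sulphotransferase gene hs6st2 rose instead (0.78 in mutants and 1.38 in wild-type embryos), and was named after its values were seen. It was the only gene of the 3 lists called between genotypes, at -0.42 for mutant against wild-type CPT embryos (adjusted p = 0.0305).

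Of 25 tested genes of the Ras to ERK cascade and its adaptors (36 listed), 2 rose and 12 fell in mutants and 2 rose and 11 fell in wild-type embryos, with medians of -0.45 and -0.27. The share called was 56.0% and 52.0%, near the background. On the log2 scale the adaptor gene gab1 was at -1.70 in mutants and -1.79 in wild-type embryos, the GTPase gene hrasa at -1.64 and -1.67, the kinase gene raf1a at -1.81 and -1.80, and rps6ka1, which encodes a kinase that ERK activates, at -1.93 and -2.61, and all 4 were called lower in both genotypes. A further list held early ERK target genes together with the transcription factor genes srfa, elk1, elk3 and elk4. Of its 17 tested genes (23 listed), 8 rose in mutants and 10 in wild-type embryos and 0 fell in either, with medians of 0.99 and 1.26. The share called was 47.1% in mutants and 58.8% in wild-type embryos, all higher, where 28.5% and 29.1% of all tested genes were called higher. In either direction 60.2% and 60.8% of all tested genes were called. Any gene of this list that passed the filter only through CPT libraries would raise these counts and medians, which was not checked. The called genes of this list included fosl2 (1.92 in mutants and 1.51 in wild-type embryos) and ier2a (2.06 and 2.003). Larger values were those of fosab (5.27 in mutants and 5.91 in wild-type embryos) and fosl1a (4.88 and 4.54). These immediate early genes answer to many stresses besides FGF.

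Markers of the tissues that make or receive FGF in the embryo were read beside all tested genes, of which 60.2% were called in mutants and 60.8% in wild-type embryos. The part of these tissues in the results was not tested. The share called in each genotype was 72.7% of midbrain-hindbrain boundary markers and 60% of heart markers, the latter near that of all tested genes. Midbrain-hindbrain boundary markers had 1 of 11 tested genes higher and 7 lower in each genotype, with medians of -0.62 in mutants and -0.71 in wild-type embryos. Their summed level was 125 to 135 CPM in mutant CPT and 191 to 201 CPM in mutant DMSO libraries, and 124 to 135 CPM in wild-type CPT and 190.1 to 205 CPM in wild-type DMSO libraries, and none was at 0 throughout. Their lowest values were in lmx1bb (-3.535 in mutants and -3.89 in wild-type embryos), pax5 (-3.03 and -2.08) and lmx1ba (-2.13 and -2.495), while pax2a was at -0.99 and -0.90. Heart markers had 2 of 10 higher and 4 lower in mutants and 0 higher and 6 lower in wild-type embryos, summing to 174 to 193 CPM in mutant CPT, 229 to 244 CPM in mutant DMSO, 157 to 176 CPM in wild-type CPT and 227 to 254 CPM in wild-type DMSO libraries.

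The other 4 lists held genes called in both directions. In mutants the share called was 50% of fin bud, 71.4% of otic, 71.4% of arch and pouch and 50% of tail bud markers, against 60.2% of all tested genes. In wild-type embryos these shares were 40%, 57.1%, 57.1% and 25%, against 60.8%. Fin bud markers had 2 of 10 higher and 3 lower in mutants and 1 higher and 3 lower in wild-type embryos, with sums of 398 to 430 CPM in mutant CPT, 475 to 563 CPM in mutant DMSO, 395 to 481 CPM in wild-type CPT and 457 to 475 CPM in wild-type DMSO libraries. Otic markers had 1 of 7 higher and 4 lower in mutants and 1 higher and 3 lower in wild-type embryos, with sums of 237 to 256 CPM in mutant CPT, 271 to 273 CPM in mutant DMSO, 257 to 276 CPM in wild-type CPT and 256 to 280 CPM in wild-type DMSO libraries, and hmx2 at 0. Pharyngeal arch and pouch markers had 3 of 7 higher and 2 lower in mutants and 1 higher and 3 lower in wild-type embryos, with sums of 160 to 165 CPM in mutant CPT, 158 to 170 CPM in mutant DMSO, 142 to 174 CPM in wild-type CPT and 144 to 155 CPM in wild-type DMSO libraries, and nkx2.3 at 0. Tail bud markers had 2 of 8 higher and 2 lower in mutants and 0 higher and 2 lower in wild-type embryos, with sums of 79.4 to 89.1 CPM in mutant CPT, 72.6 to 80.4 CPM in mutant DMSO, 71.2 to 81.2 CPM in wild-type CPT and 74.0 to 76.4 CPM in wild-type DMSO libraries, and wnt8a and mespba at 0. Some genes are on more than 1 list.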

How the data were processed

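Poly-A RNA of whole-embryo pools was sequenced on an Ion Proton instrument, per the labels' protocols. The values as deposited are raw read counts, 15265 gene symbols by 12 libraries. Per the submitters' processing notes, the authors' tools were HTSeq 0.9.1, STAR 2.7, Bowtie2, Trim Galore 0.4.4 and Picard 2.5.0, and danRer11 was the genome build. The sources used here do not give the annotation, the strand setting or the handling of reads with several matches, so counts of overlapping genes and of near-identical gene copies are uncertain. Of the tested members, 21 overlap another gene in the RefSeq annotation, 2 of them a gene of the table.

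The members and lists were chosen with earlier results of these data known, and the 11 gene pairs (every tested a and b pair, and 4 receptor genes against fgfr4) and the neighbours of fgf2 and fgf23 after values were seen. Each member could be named; values in every library were given for members called between genotypes, the 10 members with the smallest p in each CPT comparison and a fixed set of signalling genes, and of each list up to 4 called genes with the smallest p. Genes were filtered with filterByExpr by group, which left 11866, and scaled with TMM factors. One robust quasi-likelihood fit in edgeR 4.0.16 (R 4.3.3) with 4 group means and 8 residual degrees of freedom gave 5 contrasts, with Benjamini-Hochberg adjustment over all genes tested and calls at an adjusted p under 0.05. The SE was taken as the absolute log2 fold change divided by √F, and intervals are 95%. Tested on simulated counts of 11765 genes for wild-type CPT against DMSO, the fit recovered 84% of 100 genes changed by 1 on the log2 scale and 96% of 100 changed by 2, with 10 false calls. Only these genes were changed in the simulation, up and down alike, whereas 60.8% of tested genes were called in the data. The rates therefore need not hold where most genes move. Pair ratios used a pseudocount of 0.5 and an exact two-sided permutation test. The floor of 3 counts and the counting interval of fgf23 cover counting error only. Alternatives were DESeq2 1.42.0, limma-voom (limma 3.58.1), RLE size factors, library totals, both other filters, a replicate block, fits on the compared groups and each library left out. Replicates of every group differed by more than counting noise, with a chi-square per degree of freedom of 7.73 to 67.4, so no library was counted as a repeat of another. RefSeq names, from another build, matched 68 of 69 members and served for names and neighbours only. Motif and protein sequence comparisons were not run here.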

Additional observations from a re-analysis of the deposited data

How the results depend on the processing

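No member reversed its direction in any alternative where it was called. In mutants 13 to 17 members rose and 13 to 15 fell under CPT when single libraries were left out, and in wild-type embryos 14 to 17 rose and 16 to 19 fell. The other alternatives gave 13 to 17 higher and 15 lower in mutants, and 11 to 17 higher and 18 to 21 lower in wild-type embryos. DESeq2, RLE size factors, the absence of a filter and the replicate block each called dusp12 higher in mutants (0.60 to 0.61 on the log2 scale) and dusp1 higher in wild-type embryos (0.27 to 0.31). Between genotypes under CPT, 1 member was called higher and 0 lower, against 3 and 1 with DESeq2, 7 and 0 with library totals, and 0 to 4 higher and 0 to 1 lower with single libraries left out. The interaction gave 0 calls, against 0 to 2 higher and 0 to 1 lower with single libraries left out, all 3 without wild-type CPT library 3. Shares of all tested genes called with single libraries left out are not given here. With the replicate number as a block, etv5b was called lower in mutants under CPT (-0.44, adjusted p = 0.045), which made 1 member lower and 1 higher. The numbers did not pair the samples: over 18 same-number pairs the correlation of deviations ran from -0.16 to 0.23, was over 0.1 in 3, and 4 of 12 libraries correlated best with their own number. The cause of these changes was not tested. Members such as etv4, etv5a, dusp4 and fgf10a held too few counts for a change to be detected, and how reads were assigned to these rows was not tested, while 3 libraries a group leave wide intervals for low genes such as fgf12a and fgf14.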
